A study of Zea mays with 12 samples.

Results

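The comparison described here asked whether the 2 reciprocal maize hybrids differed in endosperm messenger RNA by more or less than their unequal doses of the parental genomes would give. It used all 12 of the 12 arrays of the series. Endosperm, the nutritive tissue of the kernel, was collected 13 days after pollination from field-grown plants of 4 genotypes: the hybrids B73xMo17 and Mo17xB73, and the inbred lines B73 and Mo17. Each genotype had 3 arrays, 1 for each of 3 crossing dates, and on a given date all genotypes were crossed within 30 min. Each array held RNA pooled from 6 ears, with 36 endosperms per pool by the protocol, although the design text gives 5 endosperms per ear. The labels name no treatment. The tissue is labelled as endosperm, so each value is a mean over all of its cell types, and fewer cells of a type cannot be told apart from less RNA per cell.

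Endosperm is triploid: it forms when 1 sperm fuses with a central cell that holds 2 maternal genomes, so a hybrid carries 2 copies of each allele of its mother and 1 of its father. Reciprocal hybrids therefore have the same alleles in opposite doses. A gene whose alleles keep the activity they show in the inbreds is expected at 2 times the level of the maternal inbred plus 1 time that of the paternal inbred, in proportion. The reciprocal ratio of such a gene cannot pass 2-fold in either direction, whatever the inbreds read. Departures from this expectation are known for imprinted genes, in which the allele from one parent is silenced, and the hybrids also differ in the mother plant that feeds the kernel.

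For every probe set and date, the observed log2 ratio of B73xMo17 to Mo17xB73 was set against the log2 ratio expected from the inbreds of that date, (2 B73 + Mo17) over (2 Mo17 + B73). The observed minus the expected value is called the difference beyond dosage. A positive value, above the expectation, means that the ratio lay further towards B73xMo17 than dosage gives, and a negative value, below it, further towards Mo17xB73. The 3 values of a probe set were tested against 0 with limma, and adjusted p values under 0.05 were called. Means are given ± SD over the 3 dates unless an SE is named. The first parent written was taken as the mother, after maize convention. The labels do not say so. Values on the arrays are MAS5 signals, scaled to a common array median and printed as they stood before signal under 14.8 was raised to that floor for testing. Signal was taken as proportional to RNA, and neither this nor sequence differences between the parents under the probes was tested.

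Of 17734 probe sets, 113 were controls, and 10708 of the other 17621 were bright enough to test. A usable gene name was available for 808 of these (655 genes). The deposited B73xMo17 arrays of dates 1 and 2 were dim and were multiplied by 1.24 and 1.29, against 0.886 to 1.06 for the other 10 arrays. Only date 3 is free of these arrays, so the value of date 3 is given beside the results that might rest on them. Arrays of different genotypes and the same date deviated together, with mean correlations of 0.389, 0.375 and 0.424 for dates 1, 2 and 3. Starchy endosperm genes were bright as a sum in all genotypes, but not each of them. The storage protein gene dzs18, a member of the sum, read 9.86, 26.3 and 1.91 in Mo17, against 17353, 17089 and 16568 in B73. Their 9 tested markers summed to between 80945 and 91712 in B73xMo17, 48654 and 60602 in Mo17xB73, 79904 and 86398 in B73, and 40575 and 43774 in Mo17.

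Of the 10708 probe sets, 1891 lay outside the dosage expectation, which is 17.7%. Above it were 830 (7.75%) and below it 1061 (9.91%), and 3566 had an unadjusted p under 0.05. The values of all 3 dates had 1 sign for 1890 of the 1891, and for 5660 of all 10708. Calls rest on the mean of these 3 values, so 1 sign nearly follows from a call. Most departures were small: the median was 0.46 for those above and -0.51 for those below, against 0.00 over all tested probe sets, and the median size over all was 0.16. Called values larger than 1 on the log2 scale numbered 225, with 60 above and 165 below. Of the 808 tested probe sets with a usable name, 218 were called in either direction (27%). The gene lists that follow hold named genes only, so this larger share is the closer background for them. It was not split by direction. When the pairing of arrays by date was dropped, 379 lay above and 462 below. Leaving out date 3, with the pairing kept, gave 227 above and 329 below. With neither the pairing nor the dim B73xMo17 arrays, 66 lay above and 125 below. On the deposited values without scaling, where the median probe set lay at -0.19, 97 lay above and 695 below.

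A second test, which used only the 6 hybrid arrays, asked whether the reciprocal ratio itself passed the 2-fold limit. It did so for 104 probe sets (0.971%), 29 of them higher in B73xMo17 (0.271%) and 75 lower (0.7%), by limma's treat test. All 104 also lay outside the dosage expectation. Both tests use the same hybrid ratio, and the expected ratio cannot pass 2-fold, so this overlap is no separate evidence. Without the pairing, 10 were higher and 26 lower. The observed ratio moved with the expected one along a slope above 1, at 1.16, 1.40 and 1.22 on the 3 dates. No array enters both axes, since one uses the hybrids and the other the inbreds. The slope was 1.28 ± 0.13 when the inbreds came from the other dates, so that the axes shared no crossing date either. These slopes run across probe sets, which are not independent replicates.

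**Figure D1:**
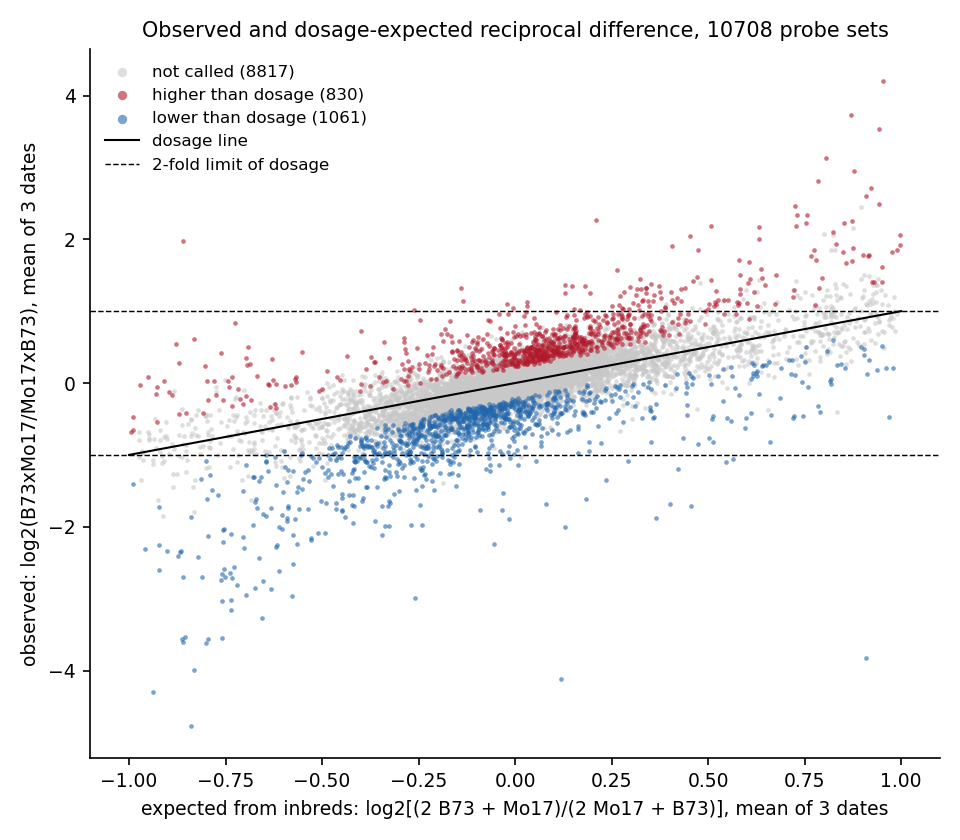
Observed log2 ratio of B73xMo17 to Mo17xB73 (vertical axis, mean of 3 dates) against the ratio expected from the inbreds at 2:1 dosage (horizontal axis, log2, mean of 3 dates) for 10708 probe sets, 1 point each. Red points (830) lay above and blue points (1061) below the dosage line, and the dashed lines mark the 2-fold limit that dosage alone cannot pass.

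Departures were not spread evenly over genes with different inbred levels. Where Mo17 was at least 2-fold higher than B73 on every date (629 probe sets), 39% were called, with 64 above and 181 below. Where B73 was at least 2-fold higher (726 probe sets), 25.5% were called, with 100 above and 85 below. Among the remaining 9353, 15.6% were called, with 666 above and 795 below. The median difference beyond dosage of the Mo17-high class was -0.11, and it was -0.10, -0.14 and -0.15 on dates 1, 2 and 3. In the B73-high class the median was 0.01, with -0.04, 0.08 and 0.01 on the 3 dates. The inbred arrays enter both the class and the difference, so noise in them is shared.

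Each hybrid can be set against its own 2:1 mean of the inbreds, and the difference beyond dosage is the departure of B73xMo17 minus that of Mo17xB73. Because the calls were made on this difference, opposite medians of the hybrids follow from it and are given as a description. Among the 830 probe sets above the expectation, B73xMo17 lay at a median of 0.28 over its own mean and Mo17xB73 at -0.20, and B73xMo17 had the larger departure in 62.7%. Among the 1061 below, the medians were -0.36 for B73xMo17 and 0.14 for Mo17xB73, and B73xMo17 had the larger departure in 77.3%. Over all 10708 probe sets B73xMo17 had the larger departure in 61.8%. On date 3 alone, which has no dim array, the medians were 0.28 for B73xMo17 and -0.17 for Mo17xB73 among those above, and -0.37 for B73xMo17 and 0.15 for Mo17xB73 among those below. B73xMo17 then had the larger departure in 64% of those above, 73.8% of those below and 59.6% of all. B73xMo17 lay above and Mo17xB73 below its mean on every date for 456 of the 830 and for 722 (6.74%) of all probe sets. The opposite arrangement held for 483 of the 1061 and for 691 (6.45%) of all.

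The named genes furthest below the expectation encode an oxylipin enzyme, glutathione transferases, a small heat shock protein, an aquaporin and proteins of the kernel base. The gene opr1, which encodes a 12-oxophytodienoate reductase, an enzyme family of which some members make jasmonate, was lowest (Zm.10676.1.S1_at). Its signal was 105, 96.3 and 164 in B73xMo17 endosperm, against 1279, 720.2 and 1601 in Mo17xB73 endosperm. The inbreds read 98.6, 126 and 247 in B73 and 1140.0, 418 and 1074 in Mo17. All B73xMo17 arrays lay below all Mo17xB73 arrays. On each date Mo17xB73 lay above Mo17, and B73xMo17 lay near or below B73. The reciprocal ratio was 9.61-fold lower in B73xMo17 (-3.26 ± 0.35, where -0.65 was expected), which left -2.61 ± 0.21 beyond dosage (adjusted p 2.60e-05) and passed the 2-fold limit (adjusted p 0.000213).

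The glutathione transferases, which join glutathione to toxic or reactive compounds, included some of the largest departures. For gst31 (Zm.556.2.A1_x_at), the signal was 176, 133 and 187 in B73xMo17 endosperm, against 711, 416 and 941 in Mo17xB73 endosperm. On this probe set the inbreds overlapped, with 270.1, 231 and 313 in B73 and 206, 144 and 290.2 in Mo17. On it B73xMo17 lay below both inbreds and Mo17xB73 above both on every date, at -0.60 and 1.52 from their own 2:1 means. The difference beyond dosage was -2.13 ± 0.25 (adjusted p 0.000113). The other 3 probe sets of gst31 read -1.52, -1.29 and -1.19 and were all called. On these, Mo17 was 2.56-, 2.86- and 3.75-fold above B73, and Mo17xB73 again lay above both inbreds on every date. B73xMo17 lay below both on every date at -1.52, but not at -1.29 (251, 264 and 245, against 252, 180 and 262 in B73). At -1.19 it lay above B73 on every date (268, 226 and 281, against 239, 125 and 214). The suffixes of these 4 probe sets mark probes that can match more than 1 transcript. The gene gst2 had 111, 67.9 and 63.4 in B73xMo17 endosperm, against 546, 727 and 656 in Mo17xB73 endosperm. Here the inbreds differed in the same direction, at 138, 91.8 and 136 in B73 and 969, 1267 and 773 in Mo17, and B73xMo17 lay below both inbreds on every date. Its difference beyond dosage was -2.27 ± 0.62 (adjusted p 0.000452).

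The small heat shock protein gene hsp18c, whose product belongs to a class that binds unfolding proteins, read 553, 448 and 330.0 in B73xMo17 endosperm, against 1732, 1334 and 1027 in Mo17xB73 endosperm. The inbreds read 776, 439 and 523 in B73 and 379, 498 and 289.6 in Mo17. Mo17xB73 was above both inbreds on every date, and B73xMo17 lay between them. The difference beyond dosage was -1.80 ± 0.25 (adjusted p 0.000113) and -1.91 on date 3. The aquaporin gene PIP2-4, for a plasma membrane water channel, was dimmer, at 25.3, 27.5 and 16.5 in B73xMo17 endosperm, against 94.1, 179 and 106 in Mo17xB73 endosperm, and its difference was -1.60 ± 0.46 (adjusted p 0.00398). It was no longer called with the floor at the 40th percentile (-0.23, adjusted p 0.414), since its B73xMo17 and B73 signals lie under that floor. The gene prp2 lay at -1.32 ± 0.39 (adjusted p 0.000738). The gene PEAMT, for phosphoethanolamine methyltransferase, which makes a precursor of choline, read 544, 1073 and 793 in B73xMo17 endosperm, against 1532, 3274 and 2348 in Mo17xB73 endosperm. It lay at -1.13 ± 0.12 beyond dosage (adjusted p 0.000115), and its ratio also passed the 2-fold limit (adjusted p 0.00537).

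**Figure D2:**
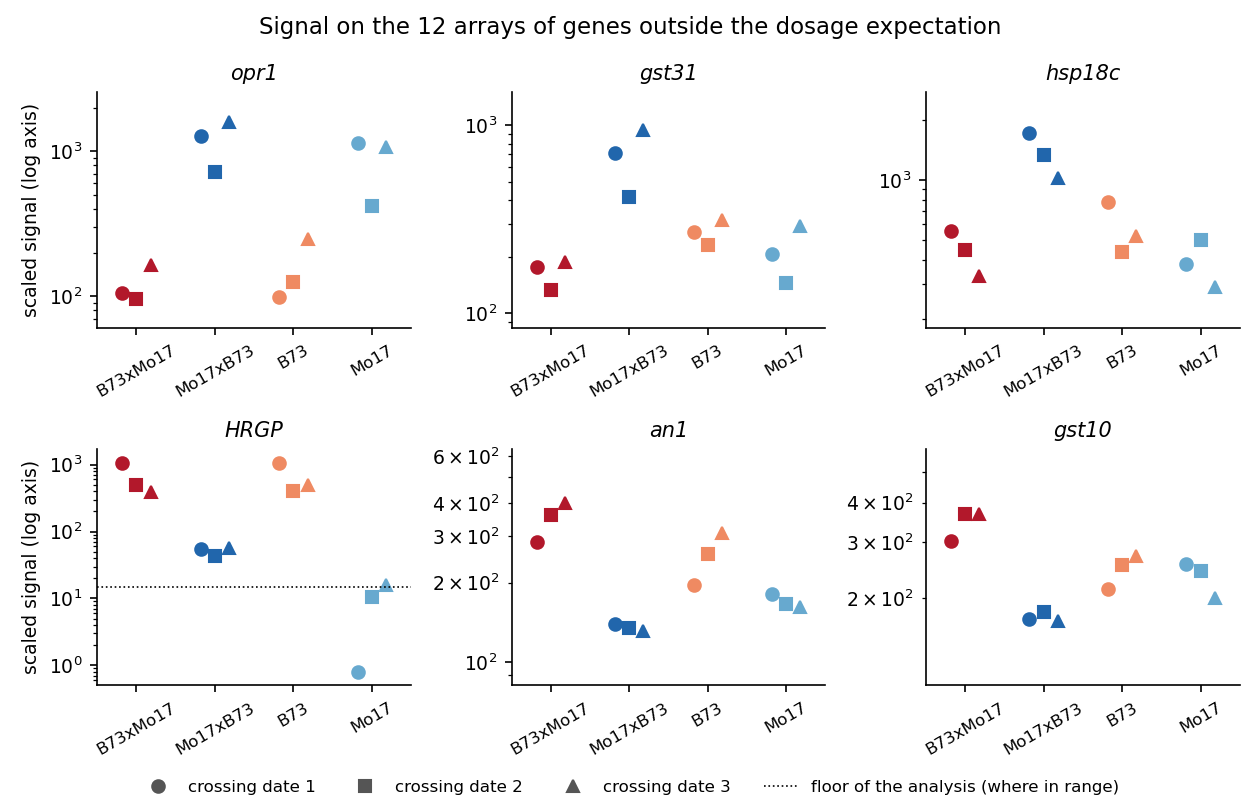
Scaled signal (log axis) on each of the 12 arrays for 6 genes outside the dosage expectation, with hybrids left of inbreds and 1 marker shape per crossing date. For opr1, gst31 and hsp18c every B73xMo17 array lay below every Mo17xB73 array, and for HRGP, an1 and gst10 every one lay above. The dotted line is the floor of 14.8 to which lower signal was raised before testing, which 2 Mo17 arrays of HRGP lay under.

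The named genes furthest above the expectation included cell wall, lipid transfer, hormone and storage protein genes. HRGP, which encodes a hydroxyproline-rich glycoprotein of the cell wall, read 1059, 497 and 391 in B73xMo17 endosperm, against 54.2, 43.4 and 56.0 in Mo17xB73 endosperm. The inbreds read 1045, 409 and 499 in B73 and 0.801, 10.5 and 15.7 in Mo17, with 2 of the Mo17 arrays under the floor. All B73xMo17 arrays lay near those of B73, whereas Mo17xB73 stayed far below its own 2:1 mean (B73xMo17 at 0.55 and Mo17xB73 at -2.05 from their means). The ratio was 11.6-fold higher in B73xMo17, and 2.59 ± 0.73 lay beyond dosage (adjusted p 0.000646). A second probe set of HRGP read 1.69 and was called as well.

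The gene an1, for the copalyl diphosphate synthase of gibberellin synthesis, read 284, 359 and 398 in B73xMo17 endosperm, against 139, 135 and 131 in Mo17xB73 endosperm. The inbreds lay between the hybrids on every date, at 196, 257 and 307 in B73 and 181, 167 and 162 in Mo17. The hybrids thus stood outside the inbred range in opposite directions, with 0.62 for B73xMo17 and -0.55 for Mo17xB73, and the difference beyond dosage was 1.17 ± 0.16 (adjusted p 0.00104). The glutathione transferase gene gst10 had the same arrangement, with 302, 368 and 368 in B73xMo17 endosperm, against 172, 181 and 170.4 in Mo17xB73 endosperm. Its inbreds read 215, 254 and 272 in B73 and 256, 244 and 200.0 in Mo17, so almost no reciprocal difference was expected (0.03), and 0.95 ± 0.05 was found (adjusted p 0.00158). The ratio of PLTP, a phospholipid transfer protein gene, was 3.68-fold higher in B73xMo17 and passed the 2-fold limit (adjusted p 0.00423). Its difference beyond dosage was 1.01 ± 0.08 (adjusted p 0.00104). Both hybrids lay below their own 2:1 means on every date for PLTP, B73xMo17 by less (-0.42) than Mo17xB73 (-1.42).

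The delta zein gene dzs18, for a sulfur-rich storage protein, was expected at the dosage limit, since Mo17 read close to or under the floor on all 3 arrays. Its brightest probe set read 21061, 19416 and 14628 in B73xMo17 endosperm, against 4771, 3233 and 5343 in Mo17xB73 endosperm. The inbreds read 17353, 17089 and 16568 in B73 and 9.86, 26.3 and 1.91 in Mo17. All B73xMo17 arrays lay above all Mo17xB73 arrays, and the values beyond dosage were 1.14, 1.59 and 0.46 on the 3 dates (mean 1.06 ± 0.57, adjusted p 0.00450). The direction depends on the expectation: with parental doses averaged on the log2 scale in place of the linear one, the same probe set lay at -1.24 (adjusted p 0.00406). Its ratio passed the 2-fold limit (adjusted p 0.0180). That limit holds only for the linear expectation, so passing it does not settle the direction.

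UMPS, which encodes the uridine monophosphate synthase of pyrimidine synthesis, was called for the lack of a reciprocal difference. Its signal was 328, 344 and 403 in B73xMo17 endosperm, against 318, 338 and 395 in Mo17xB73 endosperm, which overlapped. On this probe set (Zm.6787.1.A1_at) the inbreds were far apart, with 50.5, 55.3 and 37.1 in B73 and 423, 439 and 525 in Mo17. Dosage gave an expectation of -0.80. B73xMo17 lay 0.94 above its own mean and Mo17xB73 0.11 above its own, so the difference beyond dosage was 0.83 ± 0.05 (adjusted p 0.00286). If the male parent were written first, it would be -0.77. A second, brighter probe set of UMPS read 0.10 and was not called (adjusted p 0.535). On it the inbreds were only 1.33-fold apart. Other named genes above the expectation were SnrK1 (1.50 ± 0.55), a kinase gene of energy signalling, caf2 (1.47 ± 0.17), whose product acts in splicing of chloroplast introns, and aba1 (1.28 ± 0.79). With the floor at the 40th percentile, SnrK1 and caf2 lay at 0.98 and 0.58, still called. AMA1, AGP2 and mlg3 lay at 0.81, 0.80 and 0.78. Without the pairing by date, aba1, AMA1 and mlg3 were not called (adjusted p 0.0679, 0.0796 and 0.299).

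**Figure D3:**
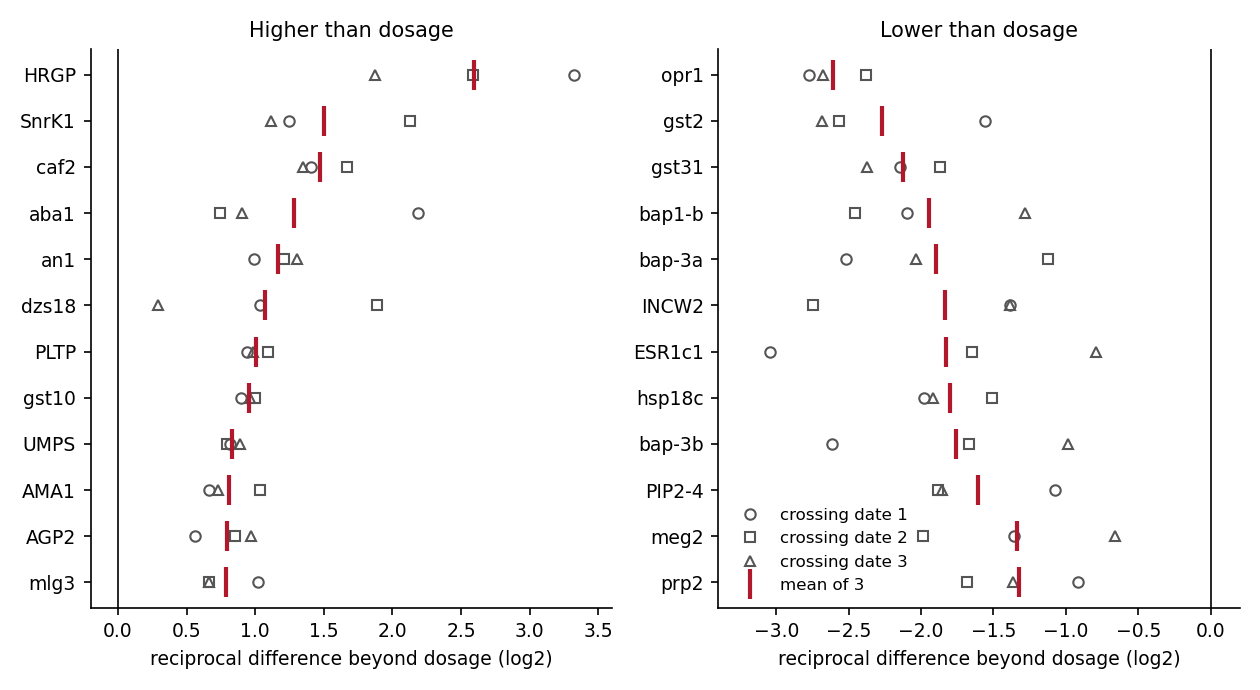
Difference beyond dosage (log2) on each of the 3 crossing dates for the 12 named genes furthest above (left) and furthest below (right) the expectation, with the mean as a red bar. Genes were shown only if their 3 dates had 1 sign. The dates spread widely for dzs18, aba1 and the kernel base genes bap-3b, ESR1c1 and INCW2.

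Genes of the kernel base lay below the expectation as a group. The basal endosperm transfer layer takes up sugar and other solutes from the mother plant, and the embryo surrounding region encloses the young embryo. Of the 14 genes found for these cell types, 11 were bright enough to test, and all 11 were called below, none above, against 9.91% of all probe sets below. Their median was -1.30, against 0.00 over all probe sets. The medians on dates 1, 2 and 3 were -1.41, -1.39 and -0.75, and all 11 values were negative on each date, including date 3, which has no dim array. The regulator MRP1 and the genes ebe1 and ebe2 were too dim to test.

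The antifungal peptide gene bap1-b, expressed in the basal layer, read 1160.3, 252 and 1151 in B73xMo17 endosperm, against 5026, 1870.1 and 4093 in Mo17xB73 endosperm. The inbreds read 2154, 270.2 and 757 in B73 and 5561, 1685 and 4925 in Mo17. Date 2 was low in every genotype, and within each date B73xMo17 lay far below Mo17xB73. The difference beyond dosage was -1.66 ± 0.54 (adjusted p 0.000649) and -1.11 on date 3. INCW2, the cell wall invertase that splits incoming sucrose in this layer, had 341, 18.9 and 215 in B73xMo17 endosperm, against 1312, 219 and 1002 in Mo17xB73 endosperm. The hybrids overlapped across dates but not within them, and the difference was -1.84 ± 0.79 (adjusted p 0.00226). BET1, a small secreted protein of the transfer layer, read 3163, 675 and 2931 in B73xMo17 endosperm, against 6628, 2167 and 4890.2 in Mo17xB73 endosperm. Its inbreds read 4818, 667 and 2003 in B73 and 5081, 1355 and 4419.8 in Mo17, and the difference was -0.92 ± 0.50 (adjusted p 0.00494).

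The related genes betl2, betl3 and betl4 lay at -0.95, -1.12 and -0.98, and the antifungal genes bap-1a, bap-3a and bap-3b at -1.29, -1.89 and -1.76. For bap-3a all 3 B73 arrays and 1 B73xMo17 array lay under the floor, and its value rests on the floor: with the floor at the 40th percentile it was -0.56 and not called (adjusted p 0.101), and it was not called without date 3 (adjusted p 0.0623). The embryo surrounding region gene ESR1 read 109, 109 and 291 in B73xMo17 endosperm, against 778, 427 and 635 in Mo17xB73 endosperm, which did not overlap, and lay at -1.30 ± 1.08 (adjusted p 0.0263) but at -0.21 on date 3. The 2 probe sets of ESR1c1 read -1.83 and -1.39, and the first of them -0.73 with the floor at the 40th percentile (adjusted p 0.0203). The gene meg2, of a family whose member meg1 is imprinted in the transfer layer, was not on the list but was among the 12 lowest, at -1.33 ± 0.66 (adjusted p 0.00302). Its probe set can match several transcripts of the family.

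The calls for this group rest on the pairing of arrays by date, because the level of the whole group moved with the date. The summed signal of the 11 genes was 9211, 2071 and 8982 in B73xMo17 on dates 1, 2 and 3, and 26295, 8530 and 19976 in Mo17xB73. It was 14160.0, 1905 and 5642 in B73, and 23568, 6204 and 20102 in Mo17. Without the pairing, limma called 0 of the 11 (adjusted p from 0.109 to 0.532), of which 2 had an unadjusted p under 0.05. With the pairing, all 11 were called on deposited values without scaling and after quantile normalization, and 11, 11 and 10 when date 1, 2 or 3 was left out.

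**Figure D4:**
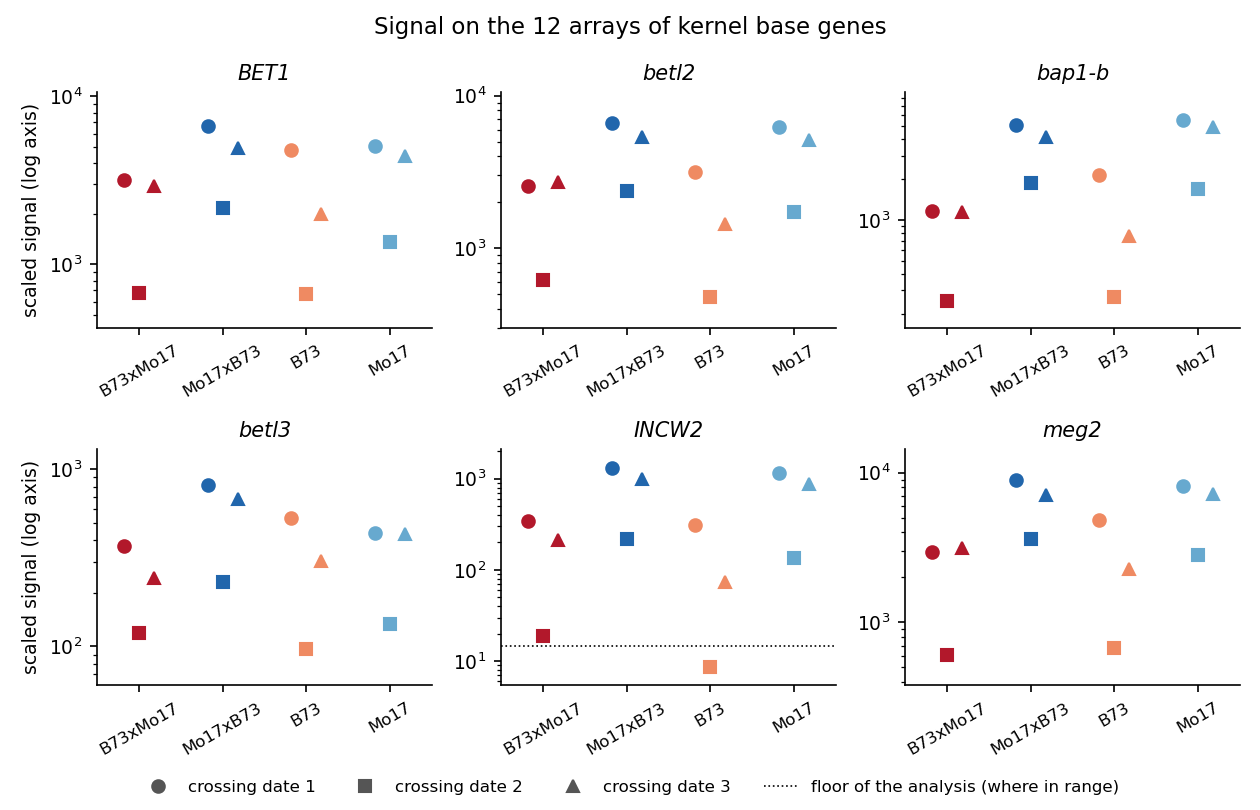
Scaled signal (log axis) on the 12 arrays for 6 genes of the kernel base, with hybrids left of inbreds and 1 marker shape per crossing date. Date 2 (squares) was lowest in every genotype and gene, and on each date B73xMo17 lay below Mo17xB73. The dotted line in the panel of INCW2 is the floor of 14.8.

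Known imprinted genes of maize endosperm and their relatives were looked up as a list, of which 7 were tested. Of the 7, 2 were called above (7.75% of all probe sets were) and 1 below, and their median was 0.29. In either direction 42.9% of the list was called, against 27% of all named probe sets. Direction alone does not mark parental bias. A gene read only from its maternal allele lies above where B73 is the higher inbred, and below where Mo17 is. The Polycomb genes fie1 and mez1, of the complex that methylates histone H3 to silence genes, are expressed from the maternal allele in endosperm. For fie1 the signal was 4369, 4575 and 4481 in B73xMo17 endosperm, against 2989, 3419.9 and 3142 in Mo17xB73 endosperm. The inbreds read 4427, 4659 and 5057 in B73 and 3188, 3379 and 3457 in Mo17. Each hybrid read close to its mother, without overlap, and the difference beyond dosage was 0.33 ± 0.06 (adjusted p 0.00997). B73xMo17 lay 0.07 from its own 2:1 mean and Mo17xB73 -0.26 from its own.

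For mez1 the signal was 1819, 2109 and 2028 in B73xMo17 endosperm, against 1319, 1437 and 1219 in Mo17xB73 endosperm. The inbreds read 2119, 2119 and 2029 in B73 and 1293, 1433 and 1414 in Mo17, and again each hybrid lay near its mother. The difference was 0.39 ± 0.17 (adjusted p 0.0128), with departures of 0.10 for B73xMo17 and -0.29 for Mo17xB73. Both calls were lost on the deposited values without scaling (0.14, adjusted p 0.762 for fie1, and 0.20, adjusted p 0.712 for mez1). The median probe set lay at -0.19 there. Both were also lost when date 3 was left out (adjusted p 0.0740 and 0.146) and with no intensity trend (adjusted p 0.0623 and 0.0684). Their relatives fie2 and mez2 lay at 0.29 ± 0.03 (adjusted p 0.154) and 0.36 ± 0.32 (adjusted p 0.111), neither called. Without date 1, mez2 lay at 0.54 and was called (adjusted p 0.0209). The alpha tubulin gene tua5 was called below, with 1869, 1876 and 1666 in B73xMo17 endosperm, against 2900.0, 3351 and 2834 in Mo17xB73 endosperm and a difference of -0.50 ± 0.11 (adjusted p 0.00266). Unlike for fie1 and mez1, Mo17 was its higher inbred, with 3397, 3683 and 3099, against 1937, 1893 and 2142 in B73. For tua5, B73xMo17 lay -0.45 and Mo17xB73 0.05 from its own 2:1 mean. TUA1 and tua4 lay at 0.05 and 0.02, not called, and mez3 was too dim to test.

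Of 14 tested genes for starch and sucrose metabolism, 4 lay above, against 7.75% of all probe sets, and 1 below, with a median of 0.22. In either direction 35.7% of the list was called, against 27% of all named probe sets. Agpsemzm, a small subunit of ADP-glucose pyrophosphorylase, which makes the glucose donor of starch, read 4145, 4553 and 4664 in B73xMo17 endosperm, against 3191, 2758 and 3086 in Mo17xB73 endosperm. The inbreds overlapped and lay between the hybrids on every date, at 3948, 3442 and 3779 in B73 and 3483, 3161 and 3510.3 in Mo17. Its difference was 0.52 ± 0.19 (adjusted p 0.00391). The starch synthase gene ss1, the branching enzyme gene sbe1 and the debranching enzyme gene zpu1 lay at 0.30, 0.37 and 0.36. The gene below was INCW2, described above with the kernel base. The sucrose synthase genes sh1, sus1 and sus2 lay at 0.12, -0.11 and 0.04, and wx1, the granule-bound synthase gene, at 0.31, none of them called. On deposited values limma called none of the list above (0 with an unadjusted p under 0.05), and it called 1 without the pairing and 1 without date 3.

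Among 5 tested zein genes only dzs18 was called above, against 7.75% of all probe sets, and the median of the 5 was 0.55. This call is 20% of the list, against 27% of all named probe sets called in either direction. The gamma zein genes gz27 and gz50 lay at 0.16 ± 0.30 and 0.43 ± 0.51, and the alpha zein genes z1C2 and z1C1_12 at 1.24 ± 1.63 and 0.55 ± 1.35, where the dates differed by more than the mean. None of 6 tested endosperm transcription factors was called by limma at an adjusted p under 0.05. The zein activators o2, ohp1, ohp2 and PBF lay at -0.05, -0.09, -0.19 and 0.15. MRP2 lay at -0.36 (unadjusted p 0.0122, adjusted p 0.0604), the only factor of the 6 with an unadjusted p under 0.05.

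Of the cell cycle and histone genes on the list, 7 of 12 were called below and none above, against 9.91% of all probe sets below, with a median of -0.38. The gene pcna1, for the sliding clamp of DNA replication, read 2165, 2728 and 2146 in B73xMo17 endosperm, against 2814, 3556 and 2927 in Mo17xB73 endosperm. The inbreds were ordered the other way, at 2934, 3946 and 3330.1 in B73 and 2122, 2397 and 2107 in Mo17, with B73 the higher. B73xMo17 thus lay below Mo17xB73 although it carries more doses of the higher parent, and the difference was -0.60 ± 0.07 (adjusted p 0.000870). The replication genes pcna2 and MCM6 lay at -0.45 and -0.69, and the cyclin genes cyc2, cyc3 and cycD2 at -0.83, -0.69 and -0.32. The histone H2B gene his2b5 read 4697, 6313 and 6476 in B73xMo17 endosperm, against 3235, 4061 and 5067 in Mo17xB73 endosperm, against 6381, 8088 and 8528 in B73 and 84.7, 209 and 276 in Mo17. The reciprocal ratio of his2b5 was smaller than expected (0.51 ± 0.14, where 0.95 was expected). If the male parent were written first, his2b5 would lie above, at 1.46. Without the pairing 3 of the list were called, cyc3 and his2b5 not among them (adjusted p 0.0820 and 0.448). Without date 3, 2 were called. Other genes of the cell cycle are not on the list. Of these, cks1, for a subunit of cyclin-dependent kinase complexes, was called above (0.27, adjusted p 0.0260) and krp6, for an inhibitor of these kinases, below (-0.41, adjusted p 0.0263), both chosen after their values were seen.

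Among 18 heat shock and endoplasmic reticulum chaperone genes, 5 were called below and 1 above, against 9.91% and 7.75% of all probe sets. The median was -0.10. In either direction 33.3% of the list was called, against 27% of all named probe sets. Without date 3, 2 of the list were below, and without the pairing 3. Beside hsp18c, the related gene hsp18f read 2703, 2112 and 1781 in B73xMo17 endosperm, against 4953, 4099 and 3310.4 in Mo17xB73 endosperm. It lay at -0.68 ± 0.02 (adjusted p 0.000471), with nearly equal values on the 3 dates, but was not called without the pairing (adjusted p 0.0640). The mitochondrial small heat shock gene hsp22 lay at -0.43, and the protein disulfide isomerase genes pdi4 and pdi6 at -0.38 and -0.40. In contrast, hsp18a lay above, at 0.64 ± 0.44 (adjusted p 0.0174), with 1296, 1345 and 1604 in B73xMo17 endosperm, against 673, 953 and 832 in Mo17xB73 endosperm. The chaperone genes bip1, bip2 and hsp101 lay at -0.01 ± 0.36, -0.19 ± 0.52 and -0.15 ± 0.54, not called.

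Fermentation and glycolysis genes were called below for 3 of 15 and above for 1, against 9.91% and 7.75% of all probe sets. Their median was 0.05. The share called in either direction, 26.7%, was about the 27% of all named probe sets. The 3 below were fermentation genes. Pyruvate decarboxylase, which starts ethanol fermentation, is encoded by pdc1, which read 2757, 2625 and 2923 in B73xMo17 endosperm, against 5777, 5792 and 6119 in Mo17xB73 endosperm. The inbreds read 2500.2, 2589 and 2509.6 in B73 and 5807, 6913 and 6426 in Mo17. B73xMo17 was close to B73 and Mo17xB73 close to Mo17, without overlap between the hybrids, and the difference was -0.67 ± 0.03 (adjusted p 0.000485). The second decarboxylase gene pdc3 lay at -0.59 ± 0.18 (adjusted p 0.00248), and the alcohol dehydrogenase gene adh2 at -0.72 ± 0.20 (adjusted p 0.00683, or 0.0566 without the pairing). The decarboxylase gene pdc2 and adh1 lay at -0.09 and 0.05, not called. The gene pdk1 was called above, at 0.36 ± 0.13 (adjusted p 0.0126).

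Detoxification, transport and cell wall genes were called below for 14 of 29 and above for 4, against 9.91% and 7.75% of all probe sets, with a median of -0.41. Cellulose synthase genes made up 5 of the 14: CesA-1, CesA-2, CesA-4, CesA-6 and CesA-8, of 9 tested. CesA-1 read 294, 319 and 379.6 in B73xMo17 endosperm, against 569.6, 675 and 705 in Mo17xB73 endosperm. Its inbreds read 369, 336 and 419 in B73 and 591, 732 and 793 in Mo17, and the difference was -0.68 ± 0.08 (adjusted p 0.00213). CesA-4 was called without a reciprocal difference of its own. It read 223, 180.3 and 138 in B73xMo17 endosperm, against 173, 193 and 159.7 in Mo17xB73 endosperm, which overlapped, although its inbreds differed (332, 230.4 and 222 in B73 and 39.8, 40.2 and 28.0 in Mo17). The other 4, CesA-3, CesA-5, CesA-7 and CesA-9, lay at 0.08, -0.14, -0.18 and -0.41, not called. The expansin gene expA4, for a protein that loosens cell walls, lay at -0.94 ± 0.30, and the proton pump gene mha4 at -0.92 ± 0.22, while the pump gene mha1 lay above, at 0.53. The aquaporin genes pip1-2 and pip2-5 lay at -1.03 and -0.59. Those above were mha1, HRGP, PLTP and gst10. Without date 3, 8 of the 29 were below, and without the pairing 10.

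Of 11 tested hormone genes, 3 were above, against 7.75% of all probe sets, and 1, opr1, below, near the 9.91% of all. Their median was 0.09. In either direction 36.4% of the list was called, against 27% of all named probe sets. Those above were an1, aba1 and the auxin-binding protein gene abp1, which read 2666, 2358 and 1979.6 in B73xMo17 endosperm, against 1530.0, 1376 and 1238 in Mo17xB73 endosperm. The difference of abp1 was 0.62 ± 0.06 (adjusted p 0.000912). The reductase genes opr5, opr7 and opr8 lay at 0.02, -0.41 and -0.05, none called. Of 19 chromatin genes other than Polycomb, 1 was above, the methyl-CpG-binding domain gene mbd105 (0.49), and 3 below: met5 (-0.24), for a DNA methyltransferase, and the nucleosome assembly and chromatin complex genes nfa101 (-0.39) and nfc104 (-0.36). These counts are near the shares of all probe sets, 7.75% above and 9.91% below. Without date 3, mbd105, nfa101 and nfc104 were not called (adjusted p 0.0674 for mbd105 and 0.155 for nfa101), nor on deposited values (adjusted p 0.516, 0.112 and 0.171). Without the pairing, nfa101 and nfc104 were not called (adjusted p 0.0512 and 0.259). Of 12 cytosolic ribosomal protein genes, 1 was above, rpl29, about the 7.75% of all probe sets. It read 1738, 1725 and 1972 in B73xMo17 endosperm, against 1058, 934 and 1226 in Mo17xB73 endosperm, and lay at 0.61 ± 0.05 (adjusted p 0.00107), but was not called on deposited values (0.42, adjusted p 0.361). The medians of the chromatin and ribosomal lists were 0.01 and 0.02, close to the 0.00 of all probe sets.

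**Figure D5:**
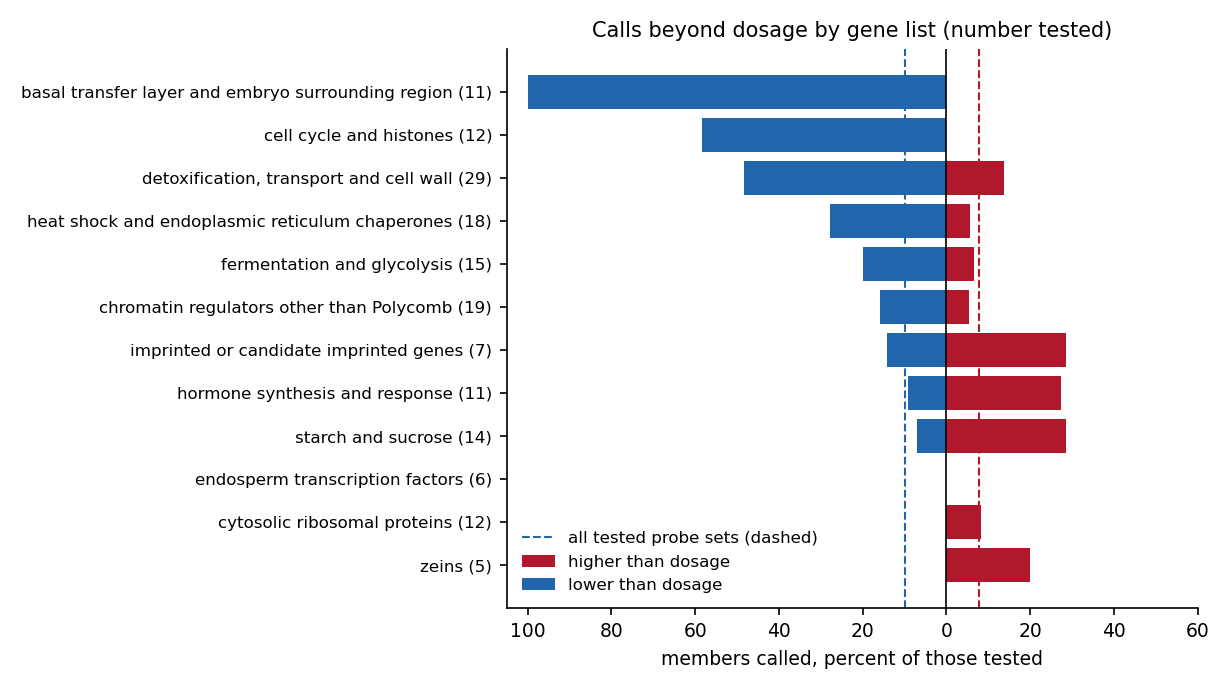
Share of tested members of 12 gene lists called above (red, to the right) and below (blue, to the left) the dosage expectation, in percent, with the number tested in parentheses. Dashed lines mark the shares over all tested probe sets, 7.75% above and 9.91% below. Of tested probe sets with a usable name, 27% were called in either direction. The kernel base list had all 11 members below, and the cell cycle list 7 of 12.

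Markers of the other kernel tissues did not all run one way. Of 3 tested embryo markers 2 were called above, against 7.75% of all probe sets: mlg3 (0.78) and the oleosin gene ole1 (0.32). The call of mlg3 was lost with the floor at the 40th percentile (0.27, adjusted p 0.326), on deposited values (adjusted p 0.202), with no filter (adjusted p 0.0787), without date 1 (adjusted p 0.127), without date 3 (adjusted p 0.106) and under the log2 expectation (adjusted p 0.0619). The summed embryo markers ranged from 3585 to 4672 in B73xMo17, 2983 to 4626 in Mo17xB73, 3601 to 4372 in B73 and 3559 to 4253 in Mo17. Of the embryo markers too dim to test, glb2 and lec1 had mean signals of 13.6 and 1.83, under the floor. The markers glb1 and rab17 had 61.4 and 37.5, over it. Of 5 aleurone and anthocyanin genes, fht1 (-0.71), dhn2 (-0.56) and vpp1 (-0.29) lay below, against 9.91% of all probe sets, and PER1 (0.34) above. Their sums ranged from 6113 to 7348 in B73xMo17, 6897 to 9763 in Mo17xB73, 6577 to 7202 in B73 and 7178 to 9142 in Mo17. The single green tissue marker bright enough to test, me3, lay at 0.29 (adjusted p 0.187), and pep1 and psaN had mean signals under the floor. The part of tissue makeup in the results above was not tested.

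Genes on which the inbreds scarcely differed give a view in which dosage predicts almost nothing. On 3047 probe sets the inbreds lay within 1.25-fold of each other on every date, a limit chosen after the data were seen, and the expected reciprocal log2 ratio was at most 0.11 in size. Of these, 162 were called above and 165 below, 10.7% in all, against 17.7% of all probe sets. A value beyond 1 was reached by 5 of them. At the other end, 1355 probe sets had inbreds at least 2-fold apart on every date. For 35 of these, the hybrids differed on all 3 dates in the direction opposite to the inbreds, 11 where Mo17 was higher and 24 where B73 was higher. This choice fixes the sign of their difference beyond dosage, so their calls are not counted.

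The largest departures belonged to probe sets without a gene name in the tables used. Zm.15394.1.S1_at read 196, 37.7 and 219.7 in B73xMo17 endosperm, against 1321, 1636 and 2169.7 in Mo17xB73 endosperm. The inbreds read 587, 622 and 173 in B73 and 4.58, 4.39 and 4.12 in Mo17, all 3 Mo17 arrays under the floor. Although B73 was the higher inbred, the hybrid with more B73 doses was the lower one, and the difference beyond dosage was -4.74 ± 1.45 (adjusted p 0.000448). Zm.15004.1.S1_at read 4.51, 9.34 and 18.3 in B73xMo17 endosperm, against 229, 246 and 376 in Mo17xB73 endosperm, while its inbreds read only 23.5, 14.5 and 55.0 in B73 and 25.7, 20.6 and 12.3 in Mo17. Of its arrays, 2 of B73xMo17, 1 of B73 and 1 of Mo17 lay under the floor, so the size of the difference depends on the floor: it was -4.24 (adjusted p 0.000200), and -1.95 (adjusted p 0.000448) with the floor at the 40th percentile. Zm.6048.2.S1_at lay at -3.36 ± 0.26 (adjusted p 2.60e-05), and Zm.10149.1.A1_at lay at -3.93, or -2.08 with the higher floor.

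Above the expectation, Zm.12.1.S1_at read 14602, 11479.8 and 8423 in B73xMo17 endosperm, against 3140.0, 1860.5 and 3957 in Mo17xB73 endosperm. Its inbreds read 305, 205 and 133 in B73 and 2842, 2624 and 4444 in Mo17. B73xMo17 lay above the higher inbred on every date although it carries 2 doses of the lower one, and the difference was 2.84 ± 0.74 (adjusted p 0.000206). Zm.13345.6.A1_x_at read 14837, 13338 and 12897 in B73xMo17 endosperm, against 1843, 195 and 1154 in Mo17xB73 endosperm, against 13864, 11079 and 12136 in B73 and 399, 125 and 337 in Mo17. Mo17xB73 stayed far below its dose of B73 on every date and most of all on date 2, and the differences were 2.07, 5.12 and 2.54 (mean 3.24 ± 1.64, adjusted p 0.00269). Zm.8328.1.A1_at and Zm.9955.1.A1_at lay at 2.86 and 2.32, and at 1.81 and 0.64 with the higher floor. Adding 16 in place of a floor gave 1.54 for Zm.9955.1.A1_at.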

How the data were processed

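Intensity values were used as the authors deposited them: MAS5 signal on a linear scale, 1 value per probe set and array, from 8 µg of total RNA labelled in 1 cycle, with MAS5 named per the submitters' processing notes. The sources used here do not state the scaling target, software version or detection calls, and the number of arrays limits the precision.

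Arrays were scaled so that the medians of their kept probe sets were equal. A floor was set at the pooled 20th percentile (14.8), and probe sets with a mean over the pooled 40th percentile (71.8) were tested. The 3 values per probe set of the difference beyond dosage were fitted in R 4.3.3 with limma 3.58.1 (intercept only, eBayes with intensity trend, 2 residual and 6.66 prior degrees of freedom, two-sided), and the reciprocal log2 ratio alone with treat at a log2 limit of 1. Benjamini-Hochberg adjustment ran over all 10708 probe sets. The self-test ran on simulated signals. An exact sign-flip test of 3 values cannot go below p = 0.25.

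Arrays were paired by replicate number, which the labels tie to crossing dates, and every pair of arrays with the same number correlated at 0.247 or more after group means were removed. Whether pools of 1 genotype shared plants across dates is not stated, so p values measure the spread between these pools. Genes were named through the platform annotation (1453 probe sets, 1452 with 1 gene and 1 with several), updated by gene identifier to the RefSeq annotation of Zm-B73-REFERENCE-NAM-5.0 (1377 matched). The comparison, the gene lists and the tests were chosen with earlier results of these data known.

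Named genes follow a rule: the 12 highest and 12 lowest called values with a usable name, 1 probe set per gene and 3 dates of 1 sign; from each list, the called members with the smallest adjusted p, at most 3; all measured members of the imprinted list; up to 10 named genes past the 2-fold limit; and the 4 highest and 4 lowest probe sets without a name. Further members of the lists are given to account for the counts. A list takes the probe set with the highest mean signal for each gene. Alternatives covered scaling, floor, filter, intensity trend, pairing, left-out dates and the form of the expectation.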

Additional observations from a re-analysis of the deposited data

Results flagged for a closer look

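The naming rule chose 60 probe sets, some without a gene name. For 35 of them, the hybrids departed from their own 2:1 means in opposite directions on all 3 dates. The difference between these departures, which is the difference beyond dosage, passed the limma test. B73xMo17 lay above its mean and Mo17xB73 below its mean for HRGP (2.59), SnrK1 (1.50), caf2 (1.47), an1 (1.17), dzs18 (1.07 and 1.06 for 2 probe sets), gst10 (0.95), AMA1 (0.81), AGP2 (0.80), abp1 (0.62), rpl29 (0.61), Agpsemzm (0.52) and mbd105 (0.49). The same held for the unnamed probe sets Zm.13345.6.A1_x_at (3.24), Zm.8328.1.A1_at (2.86) and Zm.9955.1.A1_at (2.32).

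B73xMo17 lay below its mean and Mo17xB73 above its mean for opr1 (-2.61), gst31 (-2.13), hsp18c (-1.80), hsp18f (-0.68), prp2 (-1.32), adh2 (-0.72), pdc1 (-0.67), pdc3 (-0.59), pcna1 (-0.60) and nfa101 (-0.39). Kernel base genes with this arrangement were bap1-b (-1.95 and -1.66 for 2 probe sets), INCW2 (-1.84), bap-3b (-1.76), meg2 (-1.33) and bap-1a (-1.29). Among unnamed probe sets it was shown by Zm.15004.1.S1_at (-4.24), Zm.10149.1.A1_at (-3.93) and Zm.6048.2.S1_at (-3.36). These values are the same as those in the report and are no separate evidence.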

How the results depend on the processing

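Probe sets above and below the dosage expectation numbered 830 and 1061. They were 97 and 695 on deposited values without scaling, where 12.2% of calls lay above against 43.9% of calls with scaling. They were 455 and 644 with no intensity trend, and 2977 and 2895 if the male parent were written first. Without the replicate block they were 379 and 462, and 66 and 125 without the block and the dim B73xMo17 arrays. Without the filter on dim probe sets, an alternative chosen after seeing the data, they were 485 and 702 of 15997 tested. That fit left out probe sets at the floor on all 6 hybrid arrays, since with them no fit could be had. Leaving out 1 date gave 227 to 1018 above and 329 to 1230 below, lowest without date 3 in both. Counts moved by less than 1.5 times under quantile normalization, the filter at the 60th percentile, the other floors, an added 16, the log2 expectation, inbred means over dates and inbreds of the other dates. Of the 1891 calls, 826 were shared in direction with the fit without the block, and 1568 with inbreds of the other dates.

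Past the 2-fold limit, 29 were higher and 75 lower. These were 16 and 40 with the filter at the 60th percentile, 8 and 32 with no filter, 17 and 41 with no trend, 10 and 26 without the replicate block, and 1 and 7 also without the dim arrays. On deposited values 131 were lower. Of 60 named probe sets, 20 lost their call without the block and 38 without the dim arrays too. The block is the pairing by crossing date. These 60 follow the naming rule, which also takes probe sets without a gene name. Some, members of the imprinted list, had no call to lose. Named values that reversed were UMPS (-0.77) and his2b5 (1.46) with the male first, and dzs18 (-1.24) under the log2 expectation; the cause was not tested. With probe sets split by mean signal into 5 equal classes, dimmest first, the share called was 12.7%, 17.4%, 18.9%, 22.9% and 16.3%.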

Other observations

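Among named genes whose inbreds lay within 1.25-fold of each other on every date, 27 of 227 probe sets were called (11.9%). The share was 10.7% of all probe sets with inbreds this alike, 27% of all named probe sets and 17.7% of all tested. Those named here were chosen after their values were seen, as the smallest adjusted p values of genes not described above. The annexin gene Ann7, for a calcium-dependent membrane-binding protein, read 444, 501 and 466 in B73xMo17 endosperm, against 962, 818 and 1038 in Mo17xB73 endosperm. The inbreds read 643, 656 and 891 in B73 and 766, 646 and 774 in Mo17. On every date B73xMo17 lay below and Mo17xB73 above both inbreds, and the difference beyond dosage was -0.99 ± 0.26 (adjusted p 0.000870). The recombination gene rad51a read 453, 583 and 441 in B73xMo17 endosperm, against 684, 837 and 734 in Mo17xB73 endosperm, also without overlap, and lay at -0.60 ± 0.12 (adjusted p 0.00302). PK lay below as well, at -0.81 ± 0.20 (adjusted p 0.000745). Those above included the coatomer subunit gene copz1, of vesicle transport, at 0.38 ± 0.13 (adjusted p 0.00867), sbip1b at 0.45 ± 0.20 (adjusted p 0.00838), and rnc1, whose product acts in splicing of chloroplast introns, at 0.45 ± 0.13 (adjusted p 0.0119).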
